A study of Coryphaena hippurus with 27 samples.

Results

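The miRNAs miR-99, miR-100 and miR-125 were followed in whole embryos and larvae of the mahi-mahi, Coryphaena hippurus, a fast-growing oceanic fish. Members were all rows of the deposited count tables whose name is miR-99, miR-100 or miR-125 with any letter or arm, which gave 34 of 1449 names, 7 of miR-99, 11 of miR-100 and 16 of miR-125. miR-99 and miR-100 form one family with a shared seed, the stretch of a miRNA that pairs with its targets, and their sequences are related to that of miR-10. miR-125 is the vertebrate relative of lin-4, the miRNA that times larval development in the nematode Caenorhabditis elegans. In vertebrate genomes genes of these families commonly lie in clusters together with let-7 genes, and in zebrafish miR-99 and miR-100 are known to fall when the heart regenerates.

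Animals were sampled at 24, 48 and 96 hours post fertilisation (hpf) from 3 treatments, which gave 9 groups of 3 libraries each. Control animals were held in seawater with no agent, labelled 0 g/l. The exposed animals were held in seawater with a high-energy water accommodated fraction (HEWAF, oil mixed into water at high speed) of either slick oil or source oil, each labelled 1 g/l, from soon after fertilisation and without renewal of the water. Each library came from 30 pooled embryos or larvae, so values are averages over animals and whole bodies, and a change in the share of a cell type cannot be told apart from a change in RNA per cell. The labels do not say that the replicate pools came from separate spawns, so p-values measure the spread between these pools only.

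Total counts per library ran from 51925 to 93055, and counts are given below as normalised counts per 70000 after one trimmed-mean scaling over all 27 libraries. Depth went with treatment in some comparisons. At 96 hpf every oil library, at 86977 to 93055, exceeded every control library, at 63162 to 75228 in the slick tables. At 24 hpf every source library, at 51925 to 56616, lay below every control library, at 62229 to 75306. Whether depth bears on the changes at these stages was not tested. Among the markers looked at in control animals, miR-430b of the early embryo fell and miR-122 of liver rose with the labelled stage. miR-430b had 450 normalised counts at 24 hpf, 219 at 48 hpf and 38.6 at 96 hpf, while miR-122 had 140, 212 and 303. Muscle (miR-1, miR-133a, miR-206), neural (miR-9, miR-124) and red blood cell (miR-144, miR-451) markers were all detected at each stage. They did not share 1 course: miR-206 had 637, 554 and 509 normalised counts and miR-1 had 346, 342 and 303. miR-144 had 19.0, 202 and 90.5, while miR-451 had 4.76, 12.7 and 19.4. Replicates agreed closely: chi-square per degree of freedom between libraries of a group ran from 0.479 to 1.87, and 19 of 27 pairs lay below 1, the value for sampling noise. In 3 groups 1 pair differed by less than the sampling noise while the other pairs did not: slick replicates 1 and 2 (0.545) and source replicates 1 and 3 (0.798) at 24 hpf, and control replicates 4 and 5 (0.517) at 48 hpf. Every comparison that holds such a pair was also computed with the pair counted as 1 sample, and the value is given wherever it ended a call. All pairs of slick and source oil at 48 hpf and of control and source oil at 96 hpf also lay below 1. For slick oil at 48 hpf they stood at 0.479, 0.566 and 0.558. The libraries of these groups were kept as separate samples, and why pairs lay below sampling noise was not tested.

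Of the 34 names, 23 had enough counts to be tested against control, 4 of miR-100, 6 of miR-99 and 13 of miR-125. The other 11 never exceeded 13 counts in a library. These low names were mostly second-arm or lettered forms such as miR-100-3p, with 0 to 4 counts, miR-125-3p, with 1 to 9 counts, and miR-125c-5p, with 0 to 13 counts. The authors' deposited table called miR-125c-5p higher under slick oil at 96 hpf (authors' log2 fold change 0.89, adjusted p = 0.02015). Its counts there were 9, 13 and 8 against 0, 2 and 3 in controls.

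The 23 tested names did not carry 23 separate signals. Names whose counts differed by at most 10% over the 27 libraries fell into 9 sets. The first set held miR-100, miR-100-5p, miR-100a-5p and miR-100b. The second held miR-99, miR-99-5p, miR-99a, miR-99a-5p and miR-99b, with miR-99b-5p apart. The miR-125 5p names split into 2 sets with different counts, one with miR-125, miR-125-5p, miR-125b and miR-125c and one with miR-125b-5p, miR-125a-5p and miR-125a, so that the bare name miR-125b and the name miR-125b-5p are not the same measurement here. A further set held the 3p names miR-125b-3p, miR-125b-1-3p and miR-125-2-3p, and miR-125a-2-3p, miR-125a-3p and miR-125b-2-3p stood alone. Each set is described by its most abundant name below, except that miR-125b-5p stands for the set that holds miR-125a. In the tables no name is tied to a sequence, so reads shared between names, and their true origin, cannot be resolved.

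The bare name miR-125a changed its partner between stages. At 24 hpf its counts were equal to those of the 3p name miR-125b-1-3p in 9 of 9 libraries and differed from those of miR-125a-5p by 28.7%. At 48 hpf they differed from those of miR-125a-5p by 0.821% and from those of miR-125b-1-3p by 13.7%, and at 96 hpf the same differences were 1.42% and 35.7%. A comparison of miR-125a between 24 hpf and a later stage therefore sets counts of one arm against counts of the other, and although the name is counted among the members tested, its change from 24 to 48 hpf is not given.

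**Figure D1:**
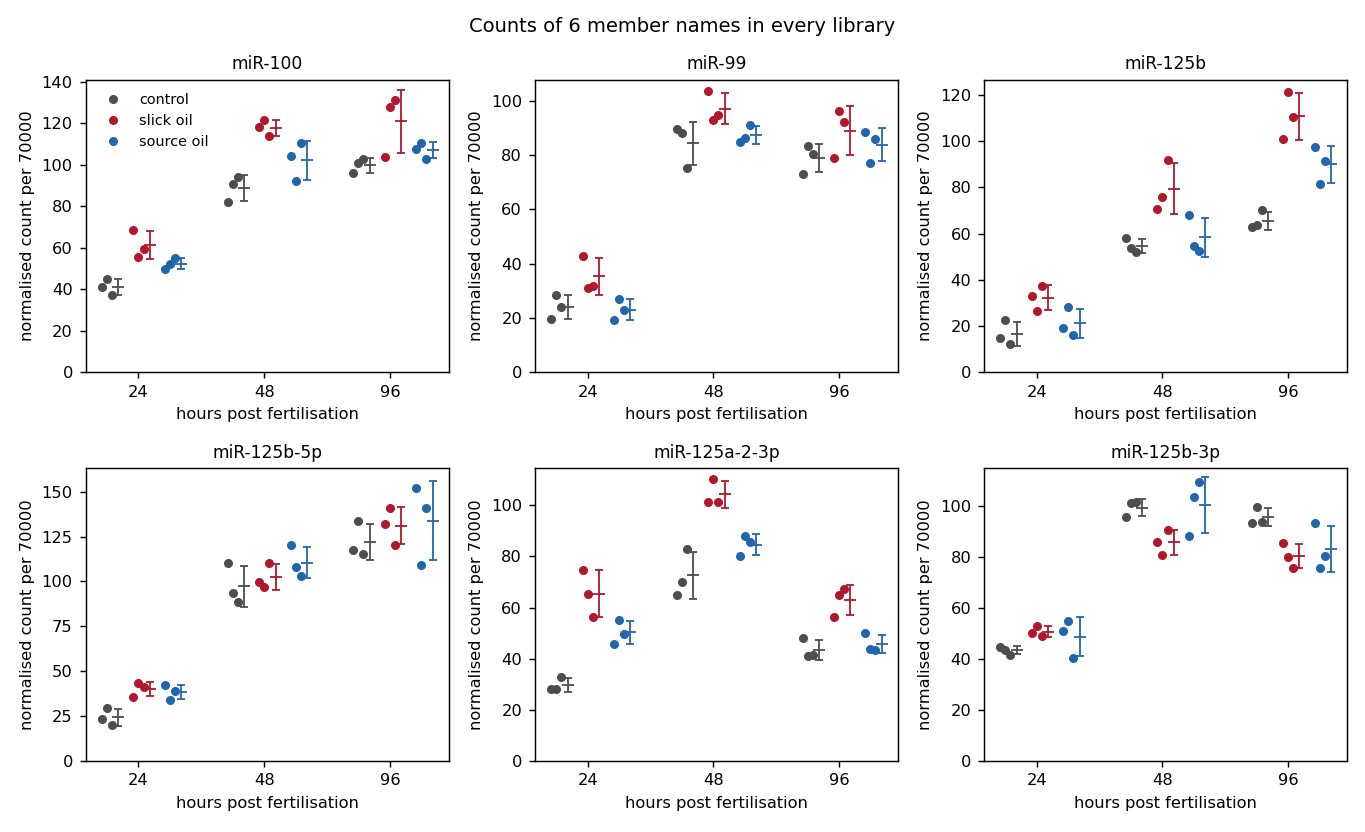
Normalised counts per 70000 (y axis) of miR-100, miR-99, miR-125b, miR-125b-5p, miR-125a-2-3p and miR-125b-3p at 24, 48 and 96 hours post fertilisation (x axis) in control, slick oil and source oil libraries; each point is 1 library, and the bars beside the points are the mean and SD of 3 libraries. The 24 hpf points of miR-99, miR-125b-5p and miR-125b lie below all 48 and 96 hpf points, and the slick points of miR-125b lie above the control points at each stage.

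In untreated animals the miRNAs rose together between 24 and 48 hpf. The comparison asks how their levels change as the embryo hatches and forms its organs. All 21 members that could be tested were higher at 48 hpf, where 23.3% of all names tested were higher and 22% were lower, with log2 fold changes from 0.93 to 2.06 and a median of 1.31, against a median of 0.00 over all names tested.

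The rise was steepest for miR-125b-5p and miR-99. miR-125b-5p, from the arm that is usually the active one, had 23.4, 29.5 and 19.8 normalised counts in the control libraries at 24 hpf and 110, 93.4 and 88.4 at 48 hpf. Its log2 fold change was 2.06 ± 0.15 (SE, n = 3 against 3; edgeR quasi-likelihood test, adjusted p = 1.226e-10). miR-99 had 19.6, 28.3 and 24.2 normalised counts at 24 hpf and 89.7, 88.2 and 75.1 at 48 hpf, a log2 fold change of 1.88 ± 0.14 (SE; edgeR adjusted p = 4.347e-10). No library at 24 hpf reached the lowest at 48 hpf for either name.

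miR-125b, of the other 5p set, rose by a log2 fold change of 1.78 ± 0.18 (SE; edgeR adjusted p = 4.936e-08), from 15.0, 22.4 and 12.1 normalised counts to 58.1, 53.6 and 51.9. miR-100 rose less, by 1.14 ± 0.11 on the log2 scale (SE; edgeR adjusted p = 2.691e-08), from 41.2, 44.8 and 37.3 normalised counts to 82.0, 90.8 and 93.9. The groups were far apart for both. The 3p names, from the arm that is usually degraded, rose by log2 fold changes of 1.23 for miR-125b-3p, 1.31 for miR-125a-2-3p, 1.31 for miR-125a-3p and 0.93 for miR-125b-2-3p. The last of these was not called by DESeq2 (adjusted p = 0.0983) or without control replicate 2 (edgeR adjusted p = 0.0647).

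Between 48 and 96 hpf few members passed the test. Of the 21 members tested, 2 were higher and 1 was lower, where 29.6% of all names tested were higher and 29.1% were lower. miR-125b-5p rose further, to 118, 134 and 115 normalised counts, by a log2 fold change of 0.33 ± 0.10 (SE; edgeR adjusted p = 0.00686), while DESeq2 did not call it (adjusted p = 0.0898). The other name called higher was miR-125a, whose counts were nearly those of miR-125b-5p at both stages. miR-125a-2-3p moved the other way and fell by 0.72 ± 0.13 on the log2 scale (SE; edgeR adjusted p = 9.959e-05), from 64.9, 70.1 and 82.9 normalised counts to 47.9, 41.1 and 41.2. The 2 stages did not overlap for miR-125a-2-3p, which makes it the only set of the 9 that was higher at 48 hpf than at both other stages by this test. The count of 3 called members depended on the processing: it was 7 with cyclic loess scaling, 6 higher and 1 lower, and 1 with DESeq2, without control replicate 6 at 48 hpf or without control replicate 8 at 96 hpf. The call for miR-125b-5p ended without either of those libraries (edgeR adjusted p = 0.114 and 0.0658).

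miR-99 stood at 73.0, 83.3 and 80.5 normalised counts at 96 hpf and did not pass the test against 48 hpf (log2 fold change -0.09, 95% interval -0.30 to 0.12). miR-100 stood at 95.9, 101 and 103, with a log2 fold change of 0.19 (95% interval 0.01 to 0.37, edgeR adjusted p = 0.165). miR-125b stood at 62.8, 63.8 and 70.0, with a log2 fold change of 0.28 (0.02 to 0.53, edgeR adjusted p = 0.104). Neither name passed, and neither had an unadjusted p under 0.05. The intervals here and below are narrower than the test, so they can exclude 0 where it did not pass.

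**Figure D2:**
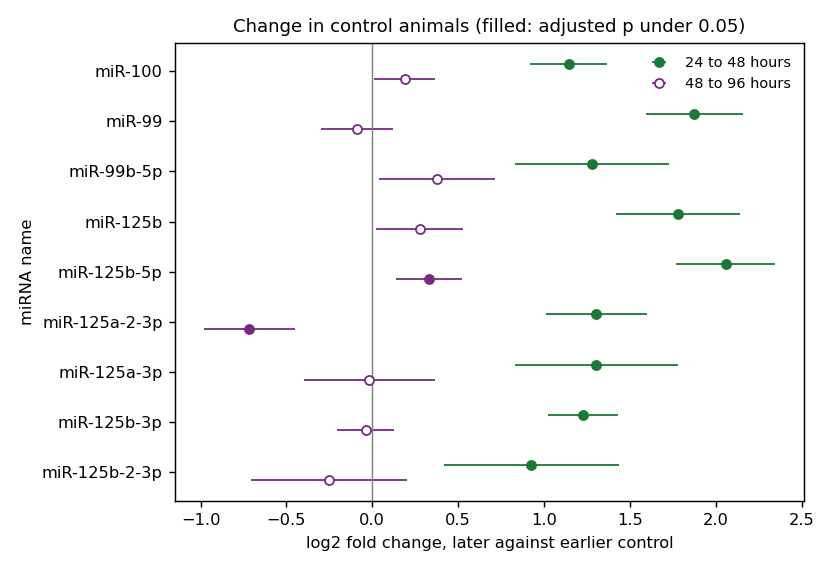
Log2 fold change with its 95% interval (x axis) in control animals from 24 to 48 and from 48 to 96 hours post fertilisation, for 1 name of each of the 9 sets (y axis); filled points passed an adjusted p of 0.05. The 9 points of the first interval all lie to the right of 0, between 0.93 and 2.06. Those of the second lie on both sides of 0, from miR-125a-2-3p at -0.72 to miR-99b-5p at 0.38. Filled points of the second are miR-125a-2-3p and miR-125b-5p, the latter at 0.33.

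At 24 hpf the miRNAs were higher in embryos exposed to slick oil. The oil comparisons ask how each oil changes miRNA levels at each stage, and at a stage both oils were set against the same 3 control libraries. Under slick oil 17 of 23 tested members were higher and 0 were lower, where 21.3% of all names tested were higher and 17.4% were lower. The 17 names belonged to 6 of the 9 sets. The log2 fold changes of the members ran from 0.23 to 1.14. Their median was 0.58, against -0.03 over all names tested. Under source oil 3 of 23 members were higher and 0 were lower, where 14.2% of all names were higher and 12.2% were lower, and the members' median was 0.24 against -0.01.

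miR-100 had 68.7, 55.4 and 59.5 normalised counts in the slick libraries against 41.2, 44.8 and 37.3 in controls. Its log2 fold change was 0.58 ± 0.14 (SE, n = 3 against 3; edgeR adjusted p = 0.00778). Under source oil it had 49.6, 52.3 and 55.1, also above every control library, but the log2 fold change of 0.38 ± 0.17 did not pass (SE; edgeR adjusted p = 0.123). The slick call was not made by DESeq2 (adjusted p = 0.0619) or in the authors' deposited table (adjusted p = 0.123). The 3 other names of the set had the same change under slick oil to within 0.01 on the log2 scale.

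miR-99 had 43.0, 31.0 and 31.9 normalised counts under slick oil and 19.6, 28.3 and 24.2 in controls, with no overlap and a log2 fold change of 0.57 ± 0.20 (SE; edgeR adjusted p = 0.0409). Under source oil its 19.1, 26.9 and 22.9 overlapped the controls, with a log2 fold change of -0.03 (95% interval -0.50 to 0.44). All 5 names of the miR-99 set passed under slick oil. The call for miR-99 is a narrow one: it ended with library size scaling (edgeR adjusted p = 0.0649), without the filter on low counts (0.0608), with a replicate block (0.0693), with the closely agreeing slick replicates counted as 1 sample (0.0778) and with DESeq2 (0.199), and it was not made in the authors' deposited table (0.298). It also ended without control replicate 1 (0.196) or 3 (0.0909) and without slick replicate 1 (0.160) or 2 (0.0594). miR-99b-5p had 25.8, 16.6 and 22.3 under slick oil against 13.1, 14.2 and 14.3 in controls and missed the threshold (log2 fold change 0.65 ± 0.22 (SE), edgeR adjusted p = 0.0656).

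miR-125b doubled on average under slick oil. It had 33.1, 26.6 and 37.2 normalised counts against 15.0, 22.4 and 12.1 in controls, a log2 fold change of 1.00 ± 0.23 (SE; edgeR adjusted p = 0.00647), which the authors' deposited table did not call (adjusted p = 0.0731). Source libraries, with 19.1, 28.3 and 16.1, overlapped the controls, and the log2 fold change of 0.39 ± 0.29 did not pass (SE; edgeR adjusted p = 0.329). miR-125b-5p was higher under both oils, with 35.6, 43.2 and 41.4 under slick oil and 42.0, 33.9 and 39.0 under source oil against 23.4, 29.5 and 19.8 in controls. Its log2 fold changes were 0.75 ± 0.19 (SE; edgeR adjusted p = 0.0102) and 0.70 ± 0.21 (SE; edgeR adjusted p = 0.0221), and neither oil group overlapped the controls. Both calls are narrow. The slick call was not made by DESeq2 (adjusted p = 0.0511), in the authors' deposited table (0.123) or without control replicate 3 (edgeR adjusted p = 0.0502). The source call was not made by DESeq2 (adjusted p = 0.213), in the authors' deposited table (0.195) or with the closely agreeing source replicates counted as 1 sample (edgeR adjusted p = 0.0538), and it ended without control replicate 1 (0.100) or 3 (0.0998) or source replicate 1 (0.0581) or 3 (0.0772). The ratio of miR-125b to miR-125b-5p within a library overlapped the controls under source oil (log2 difference -0.31 ± 0.33 (SE), exact permutation p = 0.4). A difference between these names in their change under source oil was therefore not shown.

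The largest change of any member at 24 hpf was in a 3p name, miR-125a-2-3p. It had 74.9, 65.3 and 56.3 normalised counts under slick oil and 45.8, 55.1 and 49.7 under source oil against 28.1, 28.3 and 32.9 in controls. The log2 fold changes were 1.14 ± 0.17 (SE; edgeR adjusted p = 4.582e-04) and 0.78 ± 0.19 (SE; edgeR adjusted p = 0.00634). Every library of either oil exceeded every control library. The source call was not made by DESeq2 (adjusted p = 0.0813) or in the authors' deposited table (adjusted p = 0.0707). miR-125a-3p was higher under slick oil, with 19.6, 27.7 and 18.1 against 12.2, 10.6 and 14.3, a log2 fold change of 0.83 ± 0.26 (SE; edgeR adjusted p = 0.0277). That call was not made by DESeq2 (adjusted p = 0.140), in the authors' deposited table (0.230) or with the closely agreeing slick replicates counted as 1 sample (edgeR adjusted p = 0.0765), and it ended without control replicate 1 (0.0945) or 2 (0.0705) or slick replicate 2 (0.197). The set of miR-125b-3p did not pass under either oil, with 50.3, 53.2 and 48.9 under slick oil against 44.9, 43.6 and 41.7 (log2 fold change 0.24, 95% interval -0.04 to 0.52).

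The number of calls at 24 hpf depended on the test and on single libraries. For slick oil it was 11 with the closely agreeing replicates counted as 1 sample, 4 with DESeq2 and 1 in the authors' deposited table, and it fell to 9 without control replicate 3, 10 without control replicate 1 and 11 without slick replicate 2. For source oil it was 1 with such replicates counted as 1 sample or without control replicate 1 or 3 or source replicate 1 or 3, 0 with DESeq2 or in the authors' deposited table, and 7 with cyclic loess scaling, all higher. miR-125a-2-3p under slick oil was the 1 member called in the authors' deposited table at 24 hpf, with the authors' log2 fold change of 0.95 and adjusted p of 0.00201.

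At 48 hpf miR-100 and miR-125b were again higher under slick oil, and no member passed the threshold under source oil. Under slick oil 11 of 23 tested members were higher and 0 were lower, where 19.5% of all names tested were higher and 21.3% were lower. They came from 5 of the 9 sets, and the members' median log2 fold change was 0.24 against 0.01 over all names. Under source oil 0 of 23 were called by edgeR, where 9.22% of all names were higher and 10.1% were lower. There 3 members had an unadjusted p under 0.05, DESeq2 and the authors' deposited table also gave 0, and scaling by cyclic loess gave 1.

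miR-100 had 118, 121 and 114 normalised counts under slick oil against 82.0, 90.8 and 93.9 in controls, a log2 fold change of 0.43 ± 0.09 (SE; edgeR adjusted p = 0.00108). Under source oil its 104, 92.0 and 110 overlapped the controls in 1 library (log2 fold change 0.23, 95% interval 0.05 to 0.40, edgeR adjusted p = 0.150). All 4 names of the miR-100 set passed under slick oil. miR-99 had 104, 93.1 and 94.9 under slick oil, just above the controls at 89.7, 88.2 and 75.1, and did not pass (log2 fold change 0.21, 95% interval 0.01 to 0.40, edgeR adjusted p = 0.168). miR-99b-5p passed, with 49.7, 51.6 and 36.5 against 27.3, 36.3 and 35.4 and a log2 fold change of 0.50 ± 0.19 (SE; edgeR adjusted p = 0.0241), though its lowest slick library lay only just above the highest control library. That call was not made by DESeq2 (adjusted p = 0.163), in the authors' deposited table (0.151) or with the closely agreeing control replicates counted as 1 sample (edgeR adjusted p = 0.0712), and it ended without control replicate 4 (0.175) or slick replicate 4 (0.0986) or 5 (0.110).

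miR-125b had 70.5, 75.9 and 91.8 normalised counts under slick oil against 58.1, 53.6 and 51.9, a log2 fold change of 0.55 ± 0.13 (SE; edgeR adjusted p = 7.129e-04). The source libraries had 68.0, 54.6 and 52.4 and overlapped the controls (log2 fold change 0.11, 95% interval -0.15 to 0.37). All 4 names of the miR-125b set passed under slick oil. miR-125b-5p did not pass the test against control at this stage. It had 99.5, 97.2 and 111 under slick oil and 120, 108 and 103 under source oil against 110, 93.4 and 88.4, with log2 fold changes of 0.08 (95% interval -0.10 to 0.26) and 0.19 (0.02 to 0.36, edgeR adjusted p = 0.233).

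Among the 3p names miR-125a-2-3p remained higher under slick oil, with 102, 110 and 101 normalised counts against 64.9, 70.1 and 82.9, a log2 fold change of 0.56 ± 0.10 (SE; edgeR adjusted p = 6.665e-05). miR-125a-3p was higher by 0.56 ± 0.20 on the log2 scale (SE; edgeR adjusted p = 0.0139), with 43.5, 46.6 and 41.7 against 33.3, 25.1 and 32.0, which was not called by DESeq2 (adjusted p = 0.118), in the authors' deposited table (0.107) or without control replicate 5 (edgeR adjusted p = 0.101). miR-125b-3p lay below control in every slick library, at 86.0, 81.0 and 90.7 against 95.6, 101 and 102, without passing the test (log2 fold change -0.19, 95% interval -0.38 to 0.00, edgeR adjusted p = 0.200). The slick count at 48 hpf was 6 with DESeq2 and in the authors' deposited table and 7 without control replicate 4.

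At 96 hpf the change was mainly one of the miR-125b set, and it was present under both oils. Under slick oil 7 of 23 tested members were higher and 1 was lower, where 32.5% of all names tested were higher and 27.6% were lower, so the members' share was close to or below that of all names. Under source oil 4 of 23 were higher and 0 were lower, where 28.3% of all names were higher and 19.7% were lower, and here too the members' share was below that of all names. The median log2 fold change of the members was 0.17 under slick oil against -0.01 over all names, and 0.10 under source oil against 0.03.

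miR-125b had 101, 121 and 110 normalised counts under slick oil and 97.3, 81.3 and 91.3 under source oil against 62.8, 63.8 and 70.0 in controls. The log2 fold changes were 0.76 ± 0.11 (SE; edgeR adjusted p = 1.698e-07) and 0.47 ± 0.11 (SE; edgeR adjusted p = 8.604e-04). All 6 oil libraries lay above the controls, and the 4 names called under source oil were the 4 names of this set. The authors' deposited table also called miR-125b under both oils, with the authors' log2 fold changes of 0.69 and 0.40 and adjusted p-values of 5.187e-06 and 0.0290.

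miR-125b-5p did not pass the test under either oil. It had 132, 141 and 121 normalised counts under slick oil and 152, 109 and 141 under source oil against 118, 134 and 115, with log2 fold changes of 0.11 (95% interval -0.06 to 0.28) and 0.16 (-0.02 to 0.33). Both oil groups overlapped the controls.

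miR-100 was higher under slick oil by 0.28 ± 0.10 on the log2 scale (SE; edgeR adjusted p = 0.0170), with 104, 128 and 131 normalised counts against 95.9, 101 and 103, and 1 slick library stood close to the controls. It was not called by DESeq2 (adjusted p = 0.132), in the authors' deposited table (0.113) or without control replicate 7 (edgeR adjusted p = 0.0746) or slick replicate 8 (0.0902) or 9 (0.0805). Under source oil miR-100 had 108, 111 and 103 (log2 fold change 0.12, 95% interval -0.06 to 0.30). miR-99 had 78.9, 96.1 and 92.3 under slick oil and 88.6, 77.3 and 85.9 under source oil against 73.0, 83.3 and 80.5, overlapping the controls in both, with log2 fold changes of 0.17 (-0.04 to 0.38) and 0.11 (-0.10 to 0.31).

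The 3p names of miR-125 went in both directions under slick oil at 96 hpf. miR-125a-2-3p was higher, with 56.2, 65.1 and 67.3 normalised counts against 47.9, 41.1 and 41.2, a log2 fold change of 0.54 ± 0.14 (SE; edgeR adjusted p = 0.00123). Under source oil its 49.8, 43.8 and 43.3 overlapped the controls (log2 fold change 0.10, 95% interval -0.20 to 0.40). miR-125-2-3p was lower, with 78.9, 74.2 and 69.6 against 86.7, 95.7 and 88.2, and fell by 0.27 ± 0.11 on the log2 scale (SE; edgeR adjusted p = 0.0437). Its near copy miR-125b-3p had 85.4, 80.2 and 75.9 against 93.6, 99.8 and 94.0 and missed the threshold (log2 fold change -0.24, edgeR adjusted p = 0.0665). The call for miR-125-2-3p ended with DESeq2 (adjusted p = 0.0707), with library size scaling (0.135) and without the filter on low counts (0.0653), and it was not made in the authors' deposited table (0.0587). It also ended without control replicate 8 (0.148) or 9 (0.0534) or slick replicate 8 (0.0681) or 9 (0.179).

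Counts at 96 hpf moved with single libraries. The slick count of 8 called members was 5 without slick replicate 8 or 9, and the source count of 4 was 7 without source replicate 8. At this stage the deviations of same-numbered slick and control libraries had weak correlations of 0.133, 0.162 and 0.148, which do not show a pairing. With the replicate number as a block 8 members were higher and 1 was lower. Scaling by DESeq2 size factors or by cyclic loess left 7 slick members higher and gave 3 lower, library size scaling gave 9 higher and 0 lower, and for source oil cyclic loess gave 4 higher and 3 lower.

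**Figure D3:**
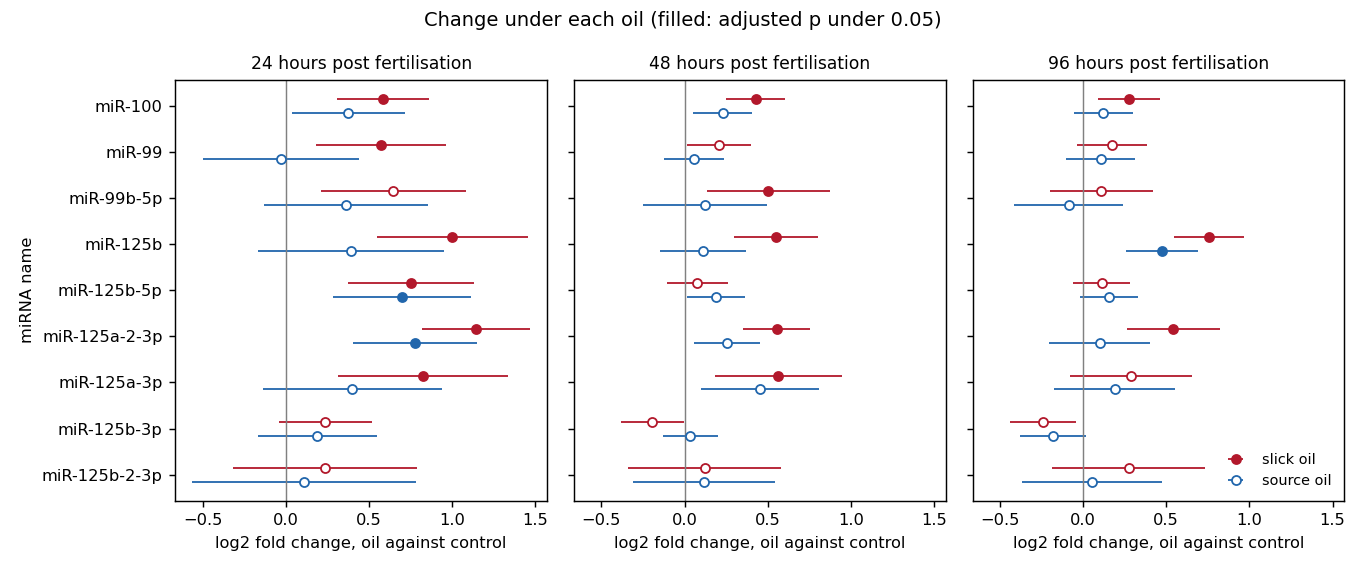
Log2 fold change against control with its 95% interval (x axis) for 1 name of each of the 9 sets (y axis) under slick and source oil at 24, 48 and 96 hours post fertilisation; filled points passed an adjusted p of 0.05. miR-125b under slick oil is filled at each stage, at 1.00, 0.55 and 0.76, while miR-125b-5p is filled at 24 hours alone, at 0.75 for slick oil and 0.70 for source oil.

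The 2 oils were compared directly at the same labelled concentration and time, over 3 stages with p-values adjusted over all names of a stage. At 24 hpf 0 of 22 members differed by edgeR and 0 by DESeq2. Of all names tested, 1.16% were higher under slick oil and 0% were lower. There 8 members, near copies among them, had an unadjusted p under 0.05, and the share of all names that did was not computed. The members' median log2 fold change was 0.24, against 0.02 over all names tested. The difference between slick and source oil was 0.61 for miR-125b (95% interval 0.12 to 1.10), 0.60 for miR-99 (0.17 to 1.03), 0.36 for miR-125a-2-3p (0.06 to 0.67), 0.21 for miR-100 (-0.07 to 0.49) and 0.05 for miR-125b-5p (-0.30 to 0.41), all on the log2 scale.

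At 48 hpf 4 of 23 members were higher under slick than under source oil and 0 were lower, where 4.87% of all names were higher and 0.628% were lower. The 4 were the names of the miR-125b set, and miR-125b itself differed by 0.45 ± 0.12 on the log2 scale (SE; edgeR adjusted p = 0.0341), with no overlap between its slick libraries at 70.5, 75.9 and 91.8 and its source libraries at 68.0, 54.6 and 52.4. This count was 0 with DESeq2, with library size scaling and without slick replicate 5 or 6 or source replicate 5 or 6. miR-100 differed by 0.21 (95% interval 0.05 to 0.37), miR-99 by 0.16 (-0.01 to 0.34), miR-125a-2-3p by 0.31 (0.14 to 0.49) and miR-125b-5p by -0.10 (-0.28 to 0.08), and these did not pass.

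At 96 hpf 1 of 21 members was higher under slick than under source oil and 0 were lower, where 1.94% of all names were higher and 2.39% were lower. It was miR-125a-2-3p, with a difference of 0.47 ± 0.13 on the log2 scale (SE; edgeR adjusted p = 0.0290) and slick libraries all above the source libraries. The call ended with DESeq2 (adjusted p = 0.478), and without slick replicate 8 or 9 or source replicate 8 or 9 the count was 0. It was 2 with a replicate block, 3 with DESeq2 size factors or cyclic loess in edgeR, 3 without slick or source replicate 7 and 2 without control replicate 7. miR-125b differed by 0.31 (95% interval 0.13 to 0.49, edgeR adjusted p = 0.0541), miR-100 by 0.19 (0.02 to 0.36), miR-99 by 0.10 (-0.10 to 0.29) and miR-125b-5p by -0.02 (-0.19 to 0.16).

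Whether an oil's effect differed between stages was tested with both treatment-by-stage terms together. For slick oil 2 of 21 members passed, where 37.2% of all names tested did. They were miR-125b-5p (edgeR adjusted p = 0.0294), whose log2 fold changes were 0.75, 0.08 and 0.11 at 24, 48 and 96 hpf, and miR-125a-2-3p (edgeR adjusted p = 0.0344), with 1.14, 0.56 and 0.54. Both changes were largest at 24 hpf, the stage at which the control counts of both names were lowest. miR-125b did not pass (edgeR adjusted p = 0.439), with 1.00, 0.55 and 0.76, nor did miR-100 (0.205), with 0.58, 0.43 and 0.28, or miR-99 (0.280), with 0.57, 0.21 and 0.17. The slick count was 0 with DESeq2, with library size scaling, with identical names merged, with closely agreeing replicates counted as 1 sample and without any 1 of control replicates 1, 3 and 5 and slick replicates 2, 7 and 9. It rose to 4 with control counts from the slick tables or without slick replicate 1, to 5 without slick replicate 4, to 6 with cyclic loess and to 7 without control or slick replicate 6, and it was 1 without control replicate 2, 7 or 8 or slick replicate 3. For source oil 0 of 21 members passed, where 19.8% of all names did. There 1 member had an unadjusted p under 0.05, DESeq2 also gave 0, cyclic loess gave 1 and control counts from the slick tables gave 4.

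The 9 groups can be put in order of their mean level. For miR-100 the mean rose from 41.1 normalised counts in 24 hpf controls through 52.4 under source and 61.2 under slick oil to 88.9 in 48 hpf controls, with no overlap between these neighbours. The oils at 24 hpf were barely apart, with the highest source library at 55.1 and the lowest slick library at 55.4. Their direct comparison did not pass (edgeR adjusted p = 0.688). Above the 48 hpf controls, 96 hpf controls at 99.8, source oil at 48 hpf at 102 and source oil at 96 hpf at 107 overlapped in turn, and the slick groups stood highest at 118 and 121. For miR-125b the order began with control, source and slick oil at 24 hpf at 16.5, 21.2 and 32.3, went on with control and source oil at 48 hpf at 54.5 and 58.3 and control at 96 hpf at 65.5, and ended with slick oil at 48 hpf at 79.4, source oil at 96 hpf at 90.0 and slick oil at 96 hpf at 111. Only 3 steps of that order were free of overlap: from slick oil at 24 hpf to control at 48 hpf, from control at 96 hpf to slick oil at 48 hpf, and from source to slick oil at 96 hpf. For miR-99 the 3 groups of 24 hpf, at 22.9 to 35.3, lay apart from the 6 later groups, at 79.0 to 97.2, within which every neighbour overlapped the next.

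Ratios of counts within a library do not depend on how libraries are scaled. In all, 9 ratios were computed over 8 contrasts of 3 against 3 libraries, 72 tests, in which the smallest two-sided exact permutation p is 0.1 and its value adjusted over the 72 is 0.171, so no contrast could pass the threshold. The pairs were chosen after the values were seen. For controls the counts of the slick tables were used.

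None of the contrasts of miR-125b-5p with miR-125b-3p, the name for the opposite arm, could pass the threshold, and they are given as values. Their ratio was higher without overlap at each later control stage, with slick oil at each stage and with source oil at 96 hpf. miR-125b-5p alone did not pass against control at 48 or 96 hpf under either oil. In controls the ratio was 0.521, 0.676 and 0.474 at 24 hpf, 1.15, 0.923 and 0.870 at 48 hpf and 1.26, 1.34 and 1.22 at 96 hpf. At 96 hpf it was 1.55, 1.76 and 1.59 under slick oil and 1.63, 1.44 and 1.75 under source oil, all above the controls (exact permutation p = 0.1 for each). The stage groups did not overlap in controls either. Slick libraries also lay above the controls at 24 hpf, at 0.707, 0.813 and 0.848, and at 48 hpf, at 1.16, 1.20 and 1.22. Source libraries overlapped the controls at 24 hpf, at 0.825, 0.615 and 0.967, and at 48 hpf, at 1.36, 1.05 and 0.941 (exact permutation p = 0.2 and 0.5).

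miR-125b against miR-125b-3p separated the oils from control more widely at 96 hpf. The ratio was 1.18, 1.51 and 1.45 under slick oil and 1.04, 1.07 and 1.14 under source oil against 0.671, 0.639 and 0.745 in controls, log2 differences of 1.01 ± 0.13 and 0.66 ± 0.07 (SE; exact permutation p = 0.1 for each). At 48 hpf it was 0.819, 0.938 and 1.01 under slick oil against 0.607, 0.530 and 0.511, with no overlap, whereas the source libraries at 0.768, 0.528 and 0.479 overlapped the controls. At 24 hpf both oils overlapped the controls in this ratio.

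**Figure D4:**
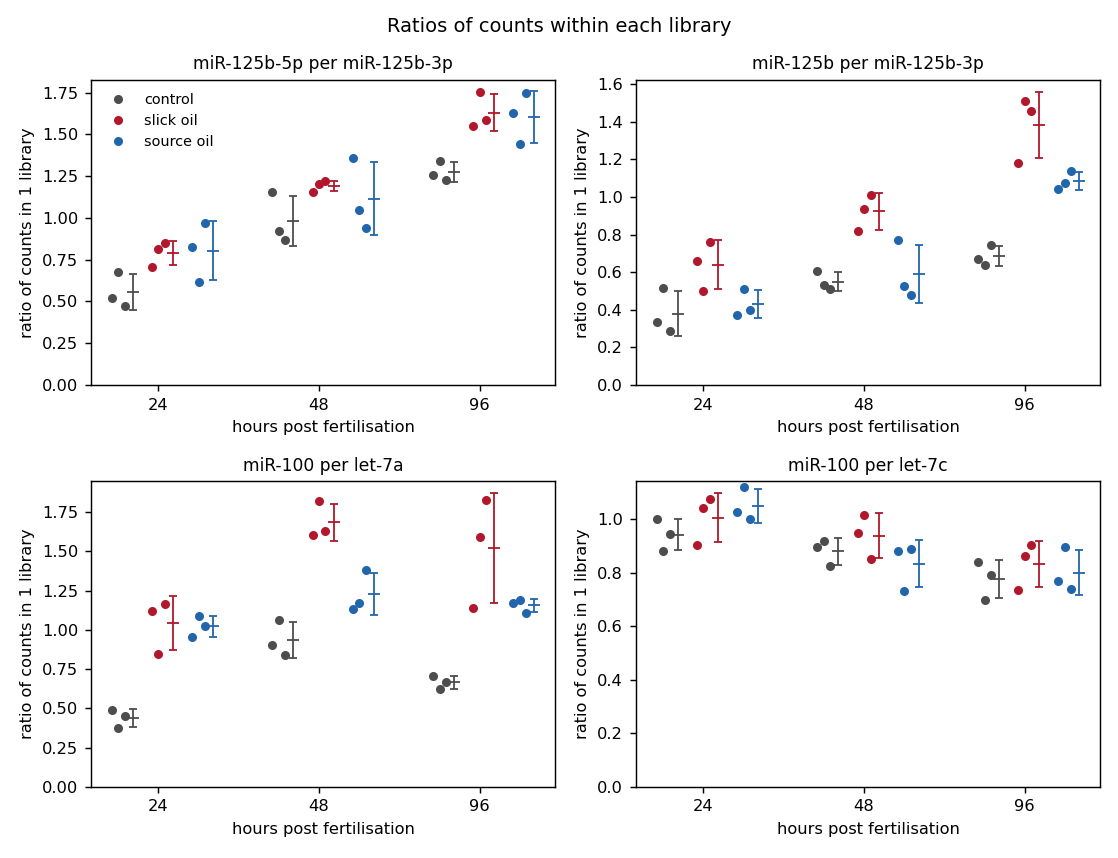
Ratio of the counts of 2 names in the same library (y axis) at 24, 48 and 96 hours post fertilisation (x axis) in control, slick oil and source oil libraries; each point is 1 library, and the bars beside the points are the mean and SD of 3 libraries. miR-100 per let-7a is higher in the oil libraries than in control at each stage, while miR-100 per let-7c stays between 0.700 and 1.12 in all 27 libraries.

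The let-7 names, whose genes share clusters with these miRNAs in vertebrates, went in both directions under slick oil. At 24 hpf 2 of 23 tested let-7 names were higher and 7 were lower, where 21.3% of all names were higher and 17.4% were lower. At 48 hpf 3 of 25 were higher and 5 were lower, where 19.5% and 21.3% of all names were, so the share lower was close to that of all names. At 96 hpf 4 of 28 were higher and 14 were lower, against 32.5% and 27.6% of all names. The median log2 fold changes of the let-7 names were -0.42, -0.06 and -0.24. The let-7 names were not grouped into near copies, so their counts can hold fewer separate signals than names. Under slick oil at 24 hpf let-7c and let-7c-5p had log2 fold changes of 0.50 and 0.51. Under source oil the counts were 0 higher and 6 lower of 23 at 24 hpf, against 14.2% and 12.2% of all names, 4 higher and 0 lower of 26 at 48 hpf, against 9.22% and 10.1%, and 0 higher and 11 lower of 28 at 96 hpf, against 28.3% and 19.7%. In control development 6 of 24 rose and 5 fell from 24 to 48 hpf, shares close to the 23.3% and 22% of all names, and 17 rose and 4 fell from 48 to 96 hpf, against 29.6% and 29.1%. The name let-7a was not among those 24. The split of let-7 calls under slick oil moved with the scaling: cyclic loess gave 6 higher and 5 lower at 24 hpf, 7 higher and 2 lower at 48 hpf, where the median became 0.10, and 0 higher and 15 lower at 96 hpf, and library size gave 0 higher and 8 lower at 24 hpf and 8 higher and 12 lower at 96 hpf.

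let-7a and let-7c differed. let-7a fell by 0.66 ± 0.16 on the log2 scale under slick oil at 24 hpf, by 0.42 ± 0.11 at 48 hpf and by 0.89 ± 0.10 at 96 hpf (SE; edgeR adjusted p = 0.00779, 0.00492 and 4.833e-10), and it was lower under each of the 4 scalings tried. Under source oil let-7a fell by 0.85 ± 0.17 at 24 hpf and by 0.68 ± 0.08 at 96 hpf (SE; edgeR adjusted p = 0.00166 and 5.137e-10). At 48 hpf it did not pass (log2 fold change -0.16 ± 0.10 (SE), edgeR adjusted p = 0.379). miR-100 did not pass under source oil at any stage, with 0.38, 0.23 and 0.12. miR-100 per let-7a, a pair chosen after the values were seen, was higher without overlap in all 6 oil comparisons. The exact permutation p was 0.1 in each, the smallest possible, so none could pass. How many other pairs of names separate in this way was not computed. At 24 hpf the ratio was 1.12, 0.848 and 1.17 under slick oil and 0.951, 1.09 and 1.03 under source oil against 0.489, 0.376 and 0.453 in controls. At 96 hpf the same ratio was 1.14, 1.59 and 1.83 under slick oil and 1.17, 1.19 and 1.11 under source oil against 0.706, 0.624 and 0.665. let-7c rose with miR-100 under slick oil at 24 hpf (log2 fold change 0.50 ± 0.16 (SE), edgeR adjusted p = 0.0333), a call that library size scaling ended, and at 48 hpf (0.34 ± 0.08 (SE), 0.00707). The calls of let-7c and miR-100 parted elsewhere: let-7c passed under source oil at 48 hpf (0.31 ± 0.08 (SE), edgeR adjusted p = 0.0286), where miR-100 did not (0.150), and it did not pass under slick oil at 96 hpf (0.17 ± 0.08 (SE), 0.124), where miR-100 did (0.0170), although library size scaling called it there. Whether the changes of these names differed was not tested beyond the ratio of miR-100 to let-7c. That ratio overlapped the control in each of the 6 oil comparisons.

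The miR-10 names, whose sequence is related to that of miR-99 and miR-100, were higher under slick oil in 10 of 13 tested names at 24 hpf, 7 of 13 at 48 hpf and 4 of 13 at 96 hpf, where 21.3%, 19.5% and 32.5% of all names were higher, and 0 were lower at each stage. At 96 hpf that share was no larger than the share over all names. The miR-10 names were not grouped into near copies, so these counts can hold fewer separate signals than names. Under slick oil at 24 hpf miR-10a-5p, miR-10b and miR-10b-5p had nearly the same log2 fold change, at 0.466, 0.466 and 0.460. Under source oil 7, 0 and 3 of 13 were higher, against 14.2%, 9.22% and 28.3% of all names, and 0 were lower, so at 48 and 96 hpf the share was below that of all names. In control development 0 of 8 rose and 4 fell from 24 to 48 hpf, where 22% of all names fell, and 0 rose and 5 fell from 48 to 96 hpf, where 29.1% fell. The names miR-10a and miR-10b were not among those 8. Cyclic loess gave 0 calls for the first interval and 8 higher under slick oil at 96 hpf, as did library size for the latter, and with DESeq2 size factors the source oil animals of 96 hpf had 1 miR-10 name higher and 1 lower.

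Over the means of the 9 groups, the names outside the families whose log2 levels ran most like those of miR-100 were let-7c (Pearson r = 0.987), miR-181c (0.966), miR-727-3p (0.950), miR-9-3-3p (0.933) and miR-92d-3p (0.916). For miR-99 they were miR-9-3-3p (0.981), let-7c (0.972), miR-181e (0.961), miR-124-4-5p (0.919) and miR-727-3p (0.907). For miR-125b-5p they were let-7c-5p (0.988), miR-9c-5p (0.969), miR-181c (0.967), miR-727-3p (0.953) and miR-124-4-5p (0.952). Each r describes 9 group means that share the step between 24 and 48 hpf, and the highest were picked from all names kept. miR-9-3-3p was near the floor at 24 hpf. It had 2.81, 2.36 and 0 normalised counts in controls, 6.14, 3.32 and 1.06 under slick oil and 1.27, 5.65 and 0 under source oil. In controls let-7c had 41.2, 50.7 and 39.5 normalised counts at 24 hpf, 91.4, 98.6 and 114 at 48 hpf and 114, 144 and 129 at 96 hpf.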

How the data were processed

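Small RNA libraries of 27 pools were analysed from the 6 count tables the authors deposited, 1 per oil and stage, which hold whole-number counts per miRNA name with no scaling. The aligner, the reference, the version of DESeq2 and what 1 count stands for were not stated in these sources. The authors' deposited result tables hold log2 fold changes, p-values and adjusted p-values, and DESeq2 is named in the submitters' processing notes. All columns of the count tables were assigned to samples, and 6813 blank lines of the slick 24 hpf table were left out.

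Each whole table was fitted with edgeR 4.0.16 (R 4.3.3; quasi-likelihood F test, two-sided; TMM scaling; filterByExpr with a minimum count of 10), and p-values were adjusted by Benjamini-Hochberg over all names tested, with a threshold of 0.05. A stage's controls occur in both of its tables, with unequal counts for 38, 28 and 38 names at 24, 48 and 96 hpf. Fits that join tables used the names with equal control counts, which dropped miR-125 at 24 and 96 hpf and miR-125a-5p at 96 hpf. Outside the members, let-7a, miR-10a and miR-10b were not in the control development fits. The fit of slick against source oil at 48 hpf also lacked let-7a. Joint scaling for plotted levels kept 716 of 990 names. Standard errors are the absolute log2 fold change over the square root of F, and the 95% intervals are 1.96 of them to each side, a normal multiple. These errors did not follow the p-values for every name, so both they and the intervals can be too narrow. In controls from 48 to 96 hpf miR-100-5p changed by 0.24 ± 0.09 (SE; edgeR adjusted p = 0.0839). miR-99b-5p, with a smaller change for its error, had 0.38 ± 0.17 (SE; edgeR adjusted p = 0.0792). An interval that excludes 0 can therefore go with an unadjusted p over 0.05. Under slick oil at 48 hpf the miR-99 interval of 0.01 to 0.40 excluded 0. The 11 members with an unadjusted p under 0.05 there were the 11 called, without miR-99. Alternatives were DESeq2 1.42.0, other scalings (limma 3.58.1 for cyclic loess), no filter, identical names merged, a replicate block, single libraries left out and the authors' table, and, chosen after seeing the data, closely agreeing replicates counted as 1 sample. The code was tested on simulated data.

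The correlation of the deviations of same-numbered oil and control libraries was over 0.1 in all 3 pairs for slick oil at 96 hpf alone. These correlations were weak, at 0.133, 0.162 and 0.148. The same control libraries gave 0.0296, -0.0214 and 0.157 against source oil. At 24 hpf the correlations ran more widely, from -0.289 (slick oil) to 0.23 (source oil). Libraries with different numbers were not correlated for comparison, so these values do not show a pairing. The reported fits used no block.

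The members, the let-7 and miR-10 lists and the tests were chosen with earlier results of these data known. Values per library were given for the most abundant name of each arm and for members past the threshold without overlap, at most 12 names, near copies being given together.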

Additional observations from a re-analysis of the deposited data

Results flagged for a closer look

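The effect of slick oil differed between stages by the test of both treatment-by-stage terms for 2 of 21 members. Of all names tested 37.2% passed, so the members' share was below that of all names. For miR-125b-5p the edgeR adjusted p was 0.0294, with log2 fold changes of 0.75, 0.08 and 0.11 at 24, 48 and 96 hpf. For miR-125a-2-3p it was 0.0344, with 1.14, 0.56 and 0.54. Neither call was made by DESeq2, with library size scaling, with identical names merged or with closely agreeing replicates counted as 1 sample. In each of these settings 0 members passed, and leaving out 1 library gave 0 to 7.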

How the results depend on the processing

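Alternatives were run for all 13 comparisons, and for 95 log2 fold changes of single names under 1482 alternative settings in all. Of these 1354 kept their direction and their side of the threshold, 69 lost a call and 17 gained one. The 42 that changed sign all belong to values that did not pass the threshold in the reported fit.

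With DESeq2 the number of members called was 4 for slick and 0 for source oil at 24 hpf, 6 for slick oil at 48 hpf, 1 for control development from 48 to 96 hpf, 0 for slick against source oil at 48 and at 96 hpf and 0 for the slick effect by stage. The authors' deposited table called 1, 0 and 6 for slick and source oil at 24 hpf and slick oil at 48 hpf. Cyclic loess scaling, which shifted the median of all names by 0.10 (source oil, 24 hpf), -0.13 (source oil, 96 hpf) and -0.11 (development to 48 hpf) on the log2 scale, called 7 for source oil at 24 hpf, 1 at 48 hpf and 7 at 96 hpf, 7 for development from 48 to 96 hpf, 3 for slick against source oil at 96 hpf and 6 and 1 for the slick and source effects by stage. Library size scaling called 0 for slick against source oil at 48 hpf and 0 for the slick effect by stage. DESeq2 size factors called 3 and the replicate block 2 for slick against source oil at 96 hpf. Merging identical names called 11 of 16 rows for slick oil at 24 hpf and 0 for the slick effect by stage. Control counts from the slick tables called 4 for either oil's effect by stage. Counting closely agreeing replicates as 1 sample, chosen after seeing the data, called 11 and 1 for slick and source oil at 24 hpf and 0 for the slick effect by stage. Leaving out 1 library called 9 to 16 and 1 to 3 for slick and source oil at 24 hpf, 7 to 11 for slick oil at 48 hpf, 5 to 12 and 4 to 7 for slick and source oil at 96 hpf, 1 to 4 for development from 48 to 96 hpf, 0 to 4 and 0 to 3 for slick against source oil at 48 and 96 hpf and 0 to 7 for the slick effect by stage. The cause was not tested.

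Values that changed sign were, on the log2 scale, for miR-99 under source oil at 24 hpf 0.15 with cyclic loess and 0.040 with closely agreeing replicates as 1 sample, and for miR-125-2-3p under source oil at 48 hpf 0.00640 with DESeq2, 0.00168 with library size, 0.00547 with cyclic loess, 0.027 with no filter and 0.00516 in the authors' deposited table. With cyclic loess miR-125b-2-3p and miR-99b-5p under slick oil at 96 hpf gave -0.052 and -0.056, miR-125a-2-3p, miR-125a-3p, miR-125b-2-3p and miR-99 under source oil at 96 hpf gave -0.13, -0.082, -0.27 and -0.0031, and miR-125b-5p in slick against source oil at 24 hpf gave -0.011. miR-125a-3p from 48 to 96 hpf gave 0.00632 with DESeq2, 0.19 with cyclic loess and 0.00691 with no filter. Leaving out 1 library gave ranges of -0.11 to 0.39 for miR-125b-2-3p and -0.20 to 0.11 for miR-99 under source oil at 24 hpf. At 48 hpf under source oil the ranges were -0.065 to 0.078 for miR-125-2-3p, -0.023 to 0.19 for miR-125b, -0.017 to 0.21 for miR-125b-2-3p, -0.025 to 0.11 for miR-125b-3p and -0.0061 to 0.11 for miR-99. At 96 hpf they were -0.015 to 0.22 for miR-99b-5p under slick oil, -0.084 to 0.21 for miR-125b-2-3p and -0.23 to 0.037 for miR-99b-5p under source oil. They were -0.15 to 0.10 for miR-125a-3p from 48 to 96 hpf, and -0.019 to 0.14 and -0.15 to 0.095 for miR-125b-5p in slick against source oil at 24 and 96 hpf.

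The replicate block gave 8 higher and 1 lower for slick oil at 96 hpf and 12 called for slick oil at 24 hpf. Whether the numbers pair the libraries was not established at either stage. Low counts limit miR-125b-2-3p, miR-125a-3p and miR-99b-5p, whose intervals at 24 hpf span about a log2 unit. They also limit miR-125b at 24 hpf, which had raw counts of 16, 19 and 11 in controls. Its log2 intervals there ran from 0.55 to 1.45 under slick oil and from -0.17 to 0.95 under source oil.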
